A study of Rattus norvegicus with 4 samples.

Results

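Interferon-stimulated genes were examined in NR8383 cells, a macrophage line obtained from rat lung lavage, after 4 h of exposure to 0.9 cm2/cm2 of Printex90, a commercial carbon black. The samples carry the abbreviation ALI and are labelled as taken after 20 passages of the line. A single group of 4 arrays, 1 for each replicate, was analysed, and the series design calls the replicates biological. Untreated cells of that design were not analysed here, so nothing below measures an effect of the particles. The gene group is a list of 46 interferon-stimulated genes chosen by function, of which 43 had at least 1 probe that could be matched to them, among 16581 genes named on the array. Herc6, Ifi44l and Xaf1 had no matched probe, so only their promoters were examined. The 43 genes had 52 probes in all, and 9 of them had more than 1.

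Interferons are cytokines that warn cells of infection. Type I interferon binds its receptor, the kinases JAK1 and TYK2 are switched on, and a complex that holds IRF9 binds the interferon-stimulated response element (ISRE) in front of target genes. Type II interferon acts through the gamma-activated site (GAS). The products sense viral nucleic acid, block viral entry, translation and release, or tag proteins with ISG15, and macrophages keep part of this set active at rest.

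The promoters of these genes are shown first, because letters resembling the ISRE and the GAS can be looked for in them. RefSeq promoter windows of the GRCr8 assembly, 250 bases before to 50 bases after the annotated start, were used for 36 of the 46 genes. An ISRE-like match was defined as GAAANNGAAA or its reverse complement TTTCNNTTTC, counted on both strands, and a GAS-like match as TTCNNNGAA, which reads the same on both strands. ISRE-like matches stood in 24 of the 36 windows (66.7%), against 3.92% of all 33469 windows of this length. GAS-like matches stood in 10 of 36 (27.8%), against 8.87% of all windows, and 8 genes held both kinds. The 12 stretches printed here, each of 60 bases and ending before the gene start, were taken from windows with an ISRE-like match. They show the match and its surroundings for members of each role. Capitals mark the ISRE-like matches, and letters run 5′ to 3′ along the gene's own strand.
Oas1a (GRCr8, chr12:41330403-41330462, plus strand): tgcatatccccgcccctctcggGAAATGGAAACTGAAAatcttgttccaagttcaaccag
Oas1b (GRCr8, chr12:41395874-41395933, minus strand): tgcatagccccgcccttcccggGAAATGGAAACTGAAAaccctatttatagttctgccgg
Ifit3 (GRCr8, chr1:241527257-241527316, plus strand): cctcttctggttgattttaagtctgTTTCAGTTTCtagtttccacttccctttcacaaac
Bst2 (GRCr8, chr16:18255061-18255120, minus strand): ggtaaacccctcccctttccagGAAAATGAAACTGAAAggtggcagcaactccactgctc
Rsad2 (GRCr8, chr6:48788233-48788292, minus strand): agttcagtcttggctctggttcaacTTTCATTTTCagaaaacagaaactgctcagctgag
Ifih1 (GRCr8, chr3:67683993-67684052, minus strand): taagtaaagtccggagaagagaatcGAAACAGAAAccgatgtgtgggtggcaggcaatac
Eif2ak2 (GRCr8, chr6:21941094-21941153, plus strand): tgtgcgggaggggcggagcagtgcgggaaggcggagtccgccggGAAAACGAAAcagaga
Igtp (GRCr8, chr10:42874919-42874978, plus strand): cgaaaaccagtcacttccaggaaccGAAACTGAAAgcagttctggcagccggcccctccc
Gbp2 (GRCr8, chr2:234005667-234005726, plus strand): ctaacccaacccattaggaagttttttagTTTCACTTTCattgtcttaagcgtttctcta
Trim21 (GRCr8, chr1:166399372-166399431, minus strand): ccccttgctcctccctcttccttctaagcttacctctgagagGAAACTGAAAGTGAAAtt
Parp14 (GRCr8, chr11:78408033-78408092, plus strand): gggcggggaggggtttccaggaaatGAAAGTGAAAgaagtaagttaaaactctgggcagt
Lgals3bp (GRCr8, chr10:104127864-104127923, minus strand): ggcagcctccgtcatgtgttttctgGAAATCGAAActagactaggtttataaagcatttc

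Oas1a and Oas1b, paralogs on chromosome 12, carried the same run of 2 overlapping matches, with the first base at position -41 and -59 from their starts. Bst2 and Trim21 also had 2 overlapping matches each. Rsad2, Gbp2 and Ifit3 had the match on the opposite strand. No window was used for Oas2, Ifit1, Ifit2, Ifitm1, Dhx58, Zbp1, Adar, Mx2, Isg15 and Usp18. A match describes letters in the window and does not show that a factor binds there.

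**Figure D1:**
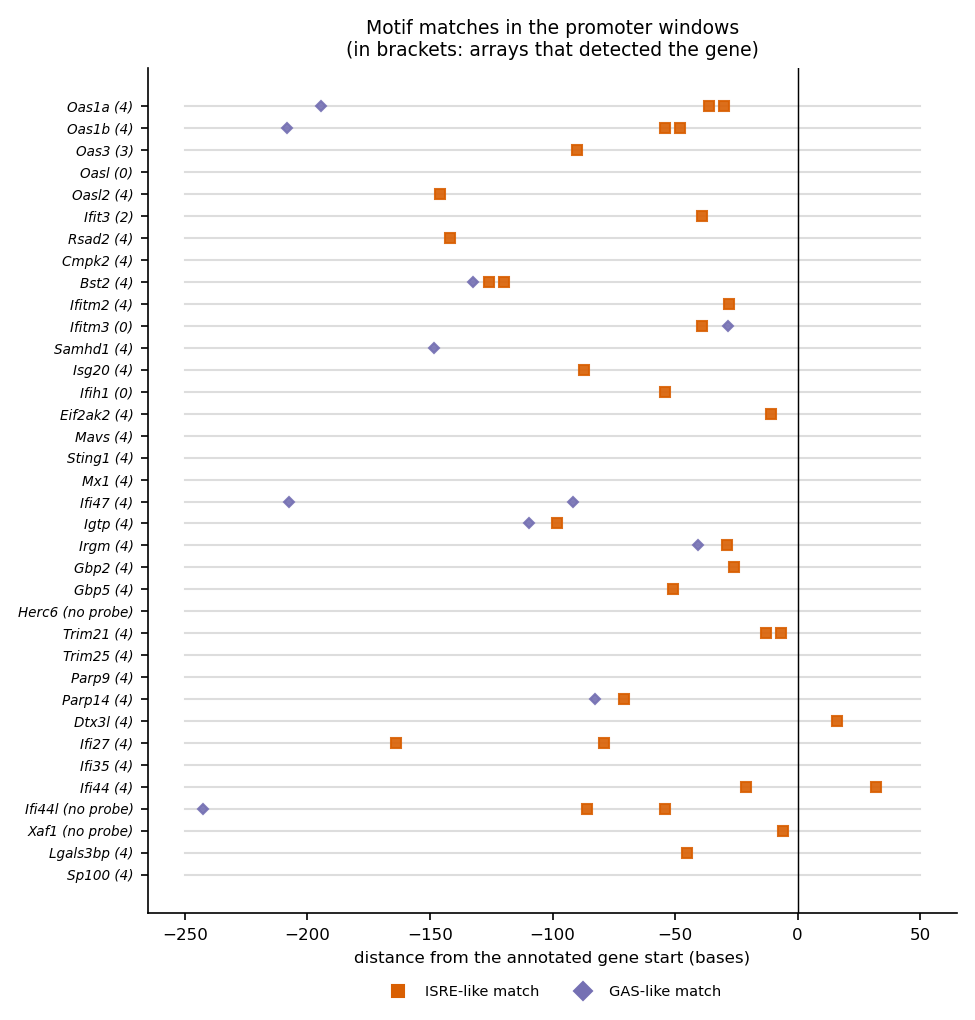
Positions of motif matches along the 36 promoter windows, with the distance in bases from the annotated gene start on the x axis and 1 gene per row; squares are ISRE-like matches, diamonds are GAS-like matches, each drawn at its centre, and the number in brackets is the count of arrays that detected the gene. ISRE-like matches start between position -169 (Ifi27) and -11 (Xaf1), except the match of Dtx3l and the second match of Ifi44, which lie after the start.

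RNA of each culture was hybridised to a 1-colour Agilent array, and a gene counted as detected on an array when any of its probes was flagged well above background by the scanner software. Each array detected between 8917 and 9985 named genes, and no spot was saturated. Of the macrophage markers, 10 of 11 measured were detected on all 4 arrays, with Adgre1 on some arrays. Of the markers of other cells, 0 of 8 epithelial genes, 1 of 7 fibroblast genes (Dcn), 2 of 6 lymphocyte and NK genes (Cd3d and Nkg7), 3 of 5 endothelial genes (Pecam1, Cdh5 and Vwf) and 3 of 5 plasmacytoid dendritic cell genes (Il3ra, Spib and Bst2 itself) were detected on all 4. Their part in the values below was not tested. Bright regions covered 0.397%, 2.23%, 2.84% and 2.61% of the spots of replicates 1 to 4. Members whose spot lay in one are named beside their values. Only the probe used for a gene's level was looked up for this, so the place of second probes is not given.

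Most interferon-stimulated genes gave a signal in the exposed cells. On all 4 arrays, 36 of 43 measured genes were detected (83.7%), against 50.8% of all named genes. All 7 interferon-induced GTPases and all 7 measured genes of ISG15, ubiquitin and ADP-ribose chemistry were among them. The count was lower for nucleic acid sensors and adaptors, with 5 of 7, and for antiviral effectors, with 12 of 17. The latter split into 4 of 6 of the 2-5A synthetases, 1 of 3 IFIT genes and 7 of 8 other effectors. Of the remaining 7 genes, Oas3 was detected on 3 arrays, Ifit3 on 2, Adar on 1, and Oasl, Ifit1, Ifitm3 and Ifih1 on none. The genes not detected on every array were not free of ISRE-like matches, which stood in 4 of the 5 with a promoter window, against 18 of 28 of the detected ones.

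The levels that follow are log2 intensities minus a reference value of the same array, the 75th percentile of the probes detected on all 4 arrays. A level of 0 lies at that reference and a difference of 1 is 2-fold. Every gene is given on replicates 1 to 4 in that order. Levels of different genes rest on different probes and are not compared. The probe sequences were not used here, and close paralogs such as Oas1a and Oas1b or Ifitm1, Ifitm2 and Ifitm3 could share signal.

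**Figure D2:**
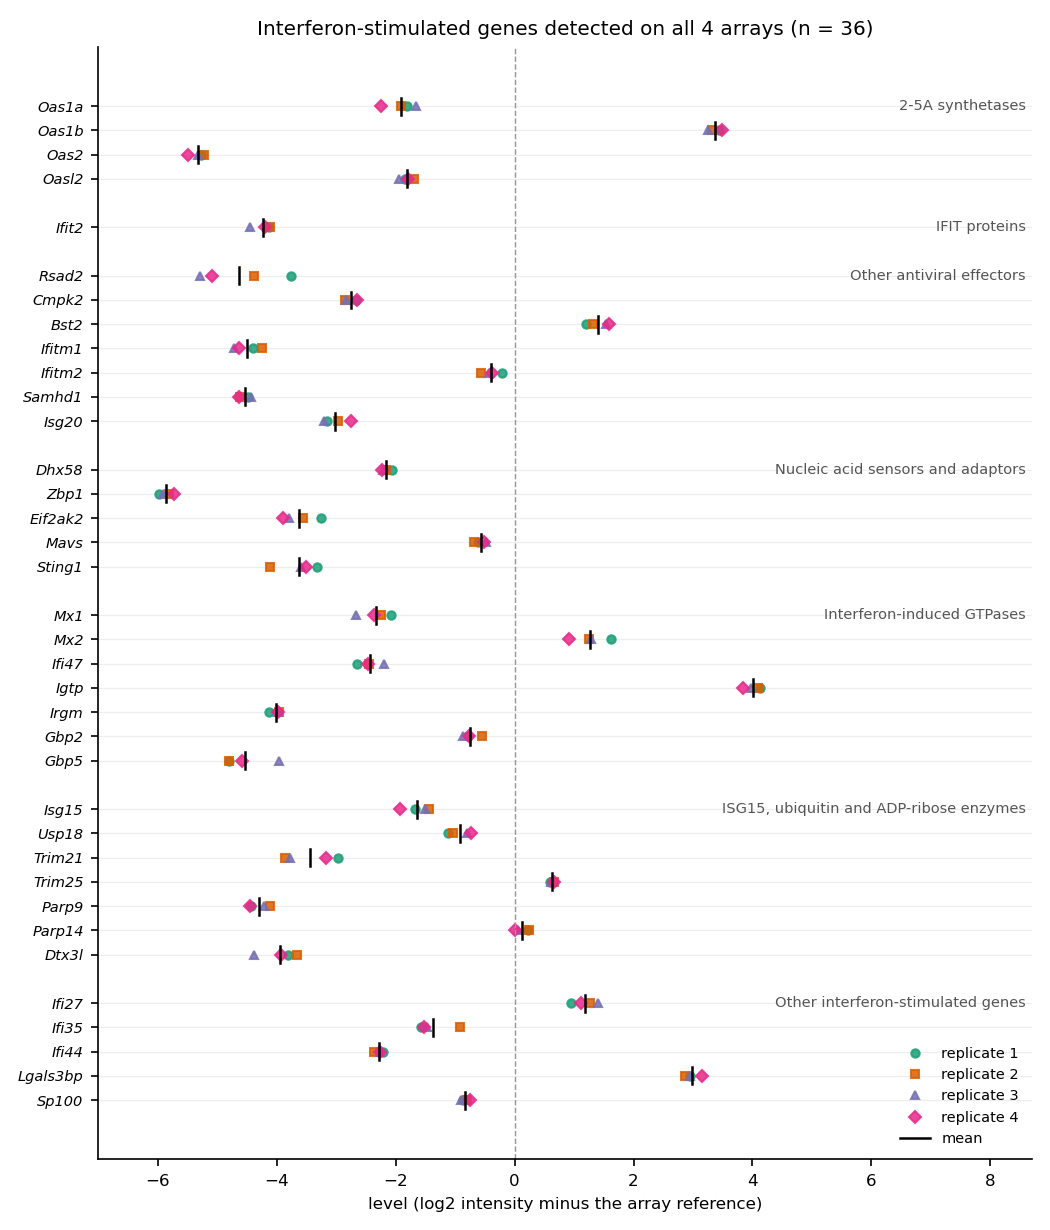
Level of each detected interferon-stimulated gene on the 4 arrays, as log2 intensity minus the array reference on the x axis, grouped by role; symbols are replicates and the black bar is their mean. Symbols of most genes lie close together, and those of Rsad2 run from -3.76 on replicate 1 to -5.29 on replicate 3.

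The 2-5A synthetases make the short oligoadenylates that switch on RNase L, which cuts viral and cellular RNA. Oas1a had levels of -1.80, -1.90, -1.66 and -2.25, with a mean of -1.90 ± 0.25 (SD, n = 4). Its second probe read -2.46, -2.44, -2.71 and -2.92. By both probes replicate 4 was lowest, but the first was highest on replicate 3 and the second on replicate 2, and the first probe's spot lay in a bright region of replicate 2. Oas1b read 3.45, 3.32, 3.25 and 3.49, a mean of 3.38 ± 0.11 (SD, n = 4). Oas2 gave -5.28, -5.21, -5.32 and -5.49, or -5.33 ± 0.12 (SD, n = 4). For Oasl2, a relative of the synthetases, the levels were -1.84, -1.68, -1.94 and -1.79, or -1.81 ± 0.11 (SD, n = 4). In these last 3 genes the highest and the lowest array differed by 1.18-fold, 1.21-fold and 1.19-fold. Oas3 read -6.29, -5.28, -5.95 and -5.32 and was detected on 3 arrays. Oasl read -6.52, -6.32, -6.06 and -6.80, and no array put it well above background.

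IFIT proteins bind foreign RNA ends and block translation. Ifit2 was the IFIT gene detected throughout, at -4.13, -4.11, -4.45 and -4.20, or -4.22 ± 0.16 (SD, n = 4), with replicate 3 lowest. Ifit3 read -6.50, -5.90, -7.16 and -5.55 and was detected on 2 arrays. Ifit1, whose product recognises RNA caps that lack host methylation, read -8.55, -8.51, -8.62 and -8.92 and was not well above background on any array.

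The other effectors act at several steps of a viral life cycle. Rsad2 encodes viperin, which makes a chain-terminating nucleotide. Its levels were -3.76, -4.39, -5.29 and -5.08, or -4.63 ± 0.70 (SD, n = 4). Replicates 1 and 2 stood above replicates 3 and 4, and the highest array was 2.89-fold above the lowest. With normexp background correction the SD of Rsad2 was 0.374, below that of Mx2 at 0.398. The Rsad2 spot lay in bright regions of replicates 2 and 4, and the part of those regions in the values was not tested. Its other probe was detected on no array. Cmpk2, a mitochondrial nucleotide kinase gene next to Rsad2, read -2.67, -2.85, -2.83 and -2.66, or -2.75 ± 0.11 (SD, n = 4). Replicates 1 and 4 were the higher ones and the whole range was 1.15-fold. The SD of Cmpk2 was below the error the scanner software assigned to its level, 0.147.

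Bst2 encodes tetherin, which holds budding virions at the cell surface. It had levels of 1.21, 1.31, 1.53 and 1.59, or 1.41 ± 0.18 (SD, n = 4), lowest on replicate 1. Samhd1, which depletes deoxynucleotides, read -4.48, -4.61, -4.43 and -4.63, or -4.54 ± 0.098 (SD, n = 4). Isg20, an exonuclease gene, read -3.15, -2.96, -3.20 and -2.75, or -3.01 ± 0.21 (SD, n = 4), highest on replicate 4. The probe of Ifitm3, which restricts viral fusion, read -8.09, -8.28, -8.43 and -7.52 without being well above background.

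Ifitm1 and Ifitm2, membrane proteins that hinder viral entry, were printed 10 times on every array, so that arrays could be compared against the spread between spots of the same array. Ifitm1 had mean spot levels of -4.41, -4.25, -4.72 and -4.63, with an SD between spots of 0.267, 0.289, 0.284 and 0.168 over 10, 10, 9 and 8 spots. The arrays differed (limma moderated F test, adjusted p = 0.0021), with replicates 1 and 2 above replicates 3 and 4, and the largest difference was 0.47. Ifitm2 had -0.22, -0.56, -0.44 and -0.38, with an SD between spots of 0.0745, 0.105, 0.0626 and 0.210 over 9, 9, 9 and 10 spots. Its arrays differed too (limma moderated F test, adjusted p = 0.00014), by at most 0.34, with replicate 1 highest and replicate 2 lowest. Of all 1350 probes printed at least 3 times, 75.2% passed the same test, so a call was usual for probes of this kind. Without replicate 1 the call of Ifitm2 was lost (adjusted p = 0.0548, limma moderated F test), and over all alternatives its adjusted p in that test ran from 5.3e-07 to 0.0548. Some spots of Ifitm2 lay in bright regions of replicates 2 and 4. The replicate order of the 2 genes was not the same, although they are paralogs: replicate 2 was highest for Ifitm1 and lowest for Ifitm2. Spots on an array share 1 RNA sample, so this test sets arrays against print and hybridisation error and says nothing on the spread of cultures.

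**Figure D3:**
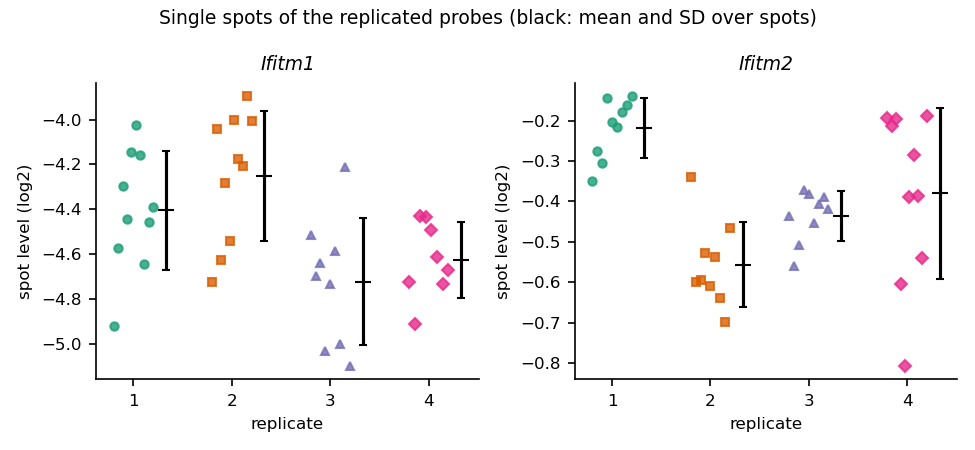
Single spots of the Ifitm1 and Ifitm2 probes on each replicate, with the spot level as log2 intensity minus the array reference on the y axis; coloured symbols are spots, and the black bar with whiskers is the mean and SD over spots. For Ifitm2, replicate 1 lies around -0.22 and replicate 2 around -0.56, while the spots of replicate 4 cover a range from -0.81 to -0.19.

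Sensors and adaptors detect viral or misplaced nucleic acid and start the response. Ifih1, the gene of the RNA sensor MDA5, was not well above background on any array, with values of -6.62, -6.46, -7.37 and -6.63. Dhx58, whose product LGP2 modulates MDA5, had levels of -2.06, -2.16, -2.22 and -2.22, or -2.16 ± 0.074 (SD, n = 4), within 1.12-fold. Mavs, the mitochondrial adaptor of these sensors, read -0.61, -0.68, -0.48 and -0.51, or -0.57 ± 0.094 (SD, n = 4). Dhx58 and Mavs were thus detected on every array, while the MDA5 probe did not pass the background flag on any. Sting1, the adaptor for cytosolic DNA, read -3.32, -4.11, -3.58 and -3.50, or -3.63 ± 0.34 (SD, n = 4). Replicate 2 was lowest there by a gap wider than the range of the other 3 arrays, and its second probe was detected on no array.

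Eif2ak2 encodes the kinase PKR, which halts translation when it binds double-stranded RNA. Its levels were -3.25, -3.56, -3.79 and -3.89, or -3.62 ± 0.29 (SD, n = 4). The second probe read -4.64, -4.63, -4.83 and -4.44, highest on replicate 4, where the first was lowest, so the 2 probes did not share an order of replicates. Zbp1, a sensor of Z-form nucleic acid, read -5.98, -5.81, -5.91 and -5.73, or -5.86 ± 0.11 (SD, n = 4). Adar, which edits double-stranded RNA, read -7.57, -5.56, -8.30 and -7.58 and was detected on 1 array.

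Interferon-induced GTPases attack viral capsids or the membranes around intracellular microbes, and all 7 were detected. Mx1, which traps viral nucleocapsids, read -2.07, -2.25, -2.66 and -2.36, or -2.33 ± 0.25 (SD, n = 4). Mx2 read 1.62, 1.26, 1.29 and 0.92, or 1.27 ± 0.28 (SD, n = 4). Both Mx genes were highest on replicate 1, but the lowest array was replicate 3 for Mx1 and replicate 4 for Mx2; the range of Mx2 reached 1.62-fold. The immunity-related GTPase gene Ifi47 read -2.64, -2.44, -2.20 and -2.46, or -2.44 ± 0.18 (SD, n = 4), and was lowest on replicate 1.

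Igtp, of the same family, read 4.13, 4.10, 3.97 and 3.84, or 4.01 ± 0.13 (SD, n = 4). Its second probe, also detected on all 4 arrays, read -4.69, -4.83, -4.46 and -4.98, so the level of this gene depends on the probe. Irgm read -4.12, -3.96, -3.97 and -3.98, or -4.01 ± 0.076 (SD, n = 4), with replicate 1 apart from the others by little in absolute size. Gbp2, a guanylate-binding protein gene, read -0.78, -0.55, -0.87 and -0.77, or -0.74 ± 0.14 (SD, n = 4). Gbp5, which also promotes inflammasome assembly, read -4.81, -4.81, -3.96 and -4.58, or -4.54 ± 0.40 (SD, n = 4). It was highest on replicate 3, where its only spot lay in a bright region, and the part of that region in the value was not tested.

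ISG15 is a ubiquitin-like protein attached to other proteins, and USP18 removes it and damps the interferon receptor. Isg15 had levels of -1.67, -1.43, -1.50 and -1.93, or -1.63 ± 0.22 (SD, n = 4), lowest on replicate 4. Usp18 read -1.12, -1.03, -0.80 and -0.72, or -0.92 ± 0.18 (SD, n = 4), highest on that same array. The highest array was thus replicate 2 for the modifier and replicate 4 for its protease.

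Trim21, a ubiquitin ligase gene whose product binds antibody-coated virus, read -2.97, -3.86, -3.78 and -3.16, or -3.44 ± 0.44 (SD, n = 4). Replicates 1 and 4 were the higher arrays, the spot lay in a bright region of replicate 1, and the part of that region was not tested. The other probe of Trim21, detected on 3 arrays, read -6.02, -5.81, -8.18 and -5.63, with replicate 2 above replicate 1. Trim25, the ligase gene that activates RIG-I, read 0.60, 0.66, 0.61 and 0.67, or 0.63 ± 0.036 (SD, n = 4), a range of 1.05-fold. Its second probe, detected on all 4 arrays as well, read -3.86, -3.20, -2.51 and -3.59 and thus ranged far more widely. Parp9, Parp14 and Dtx3l belong to an ADP-ribosylation and ubiquitin module. Parp9 read -4.44, -4.11, -4.21 and -4.45, or -4.30 ± 0.17 (SD, n = 4). Parp14 read 0.22, 0.24, 0.051 and -0.00079, or 0.13 ± 0.12 (SD, n = 4). Dtx3l, the ligase partner of PARP9, read -3.81, -3.67, -4.37 and -3.93, or -3.94 ± 0.31 (SD, n = 4). The second probe of Dtx3l was detected on no array. Parp9, Parp14 and Dtx3l were all highest on replicate 2, whereas the lowest array was replicate 4 for Parp9 and Parp14 and replicate 3 for Dtx3l. For Parp14, replicates 1 and 2 differed by less than the error the scanner software assigned to this level, 0.144.

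The other measured genes, whose products are less uniform in function, were all detected. Ifi27 read 0.96, 1.27, 1.40 and 1.12, or 1.19 ± 0.19 (SD, n = 4). Ifi35 read -1.58, -0.92, -1.47 and -1.52, or -1.37 ± 0.31 (SD, n = 4). It stood apart on replicate 2, where its only spot lay in a bright region, and the part of that region in the value was not tested. For Ifi44 the levels were -2.22, -2.36, -2.26 and -2.26, or -2.27 ± 0.059 (SD, n = 4). A second probe of Ifi44 read -2.44, -2.11, -2.57 and -2.52, highest where the first was lowest. Lgals3bp, a secreted galectin-binding glycoprotein gene, read 2.95, 2.87, 2.94 and 3.15, or 2.98 ± 0.12 (SD, n = 4). Sp100, of nuclear PML bodies, read -0.86, -0.80, -0.91 and -0.75, or -0.83 ± 0.069 (SD, n = 4).

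As a group, the interferon-stimulated genes had a median spread between replicates close to that of all detected genes with the processing used here. Under some alternatives the 2 medians lay further apart. The median SD of the 36 detected genes was 0.161, with quartiles of 0.108 and 0.247. Over all 8424 detected named genes the median was 0.162, with quartiles of 0.107 and 0.241. With this scaling and background correction, Rsad2 and Trim21 exceeded the overall 95th percentile of 0.415. By role, the median SD was 0.113 for the 2-5A synthetases, 0.113 for sensors and adaptors, 0.179 for the other effectors, 0.181 for GTPases, 0.184 for the ISG15 and ubiquitin group and 0.120 for the rest. Without replicate 4 the last value was 0.0720, and among members above the median level of detected genes that of the ISG15 and ubiquitin group was 0.120. With no detection filter the 2-5A synthetases had 0.184 and the sensors and adaptors 0.285. The SD between arrays was larger than the error that the scanner software assigned to the same level in 19 of 36 genes, against 59.9% of all detected genes.

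**Figure D4:**
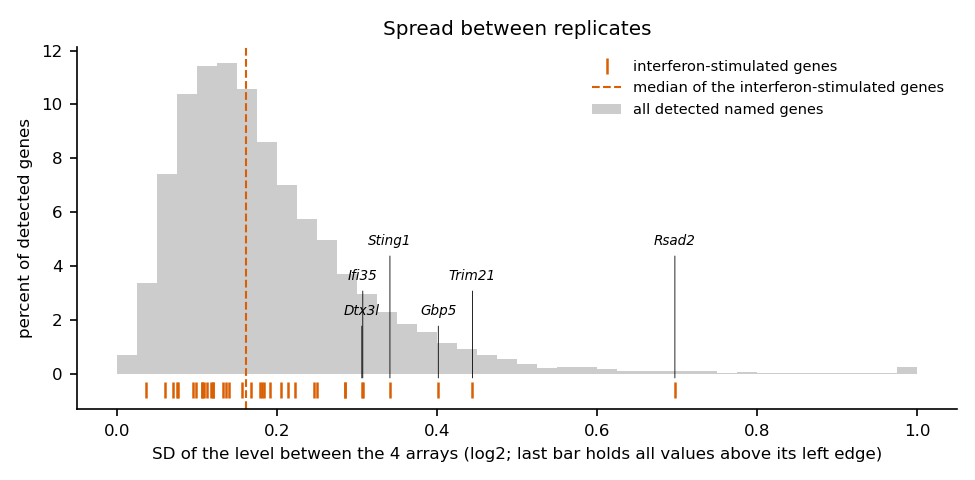
Distribution of the SD of the level between the 4 arrays (log2, x axis) as a percentage of all 8424 detected named genes (grey bars, y axis), with the 36 interferon-stimulated genes as orange ticks and the 6 above 0.3 named. The dashed line marks the median of the interferon-stimulated genes, 0.161, at the peak region of the grey bars.

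The deviation of each gene from its own 4-array mean was then set out by replicate. The median over the 36 genes stood at 0.052, 0.038, -0.038 and -0.0052 on replicates 1 to 4. Over all detected genes the medians were -0.013, 0.0046, -0.0030 and 0.026. On replicate 1 were 10 of 36 genes highest, against 22.7% of all detected genes, and on replicate 2 were 11, against 22.1%. Replicate 3 held the highest value of 6 genes, against 24.7%, and replicate 4 that of 9, against 30.4%. With the reference taken over all probes, the counts on replicates 1 to 4 were 15, 7, 10 and 4. The shares of all detected genes moved the same way, up on replicates 1 and 3 and down on replicates 2 and 4. Every array was thus the highest for some members under both references. One array stood far from the other 3 by Dixon's criterion in 2 of the 36 genes, against 5.1% of all detected genes.

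Median deviations of single roles are not given, because the sign of several turned with the scaling, the choice of probe or a left-out replicate. Differences between roles were not tested, because the genes were chosen with earlier results known and genes of an array are not replicates. Detected members with an ISRE-like match had a median SD of 0.160 (18 genes) and those without 0.136 (10 genes).

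Inflammatory cytokines and chemokines, which macrophages release on activation, were described on the same arrays for comparison. Of 14 measured, 9 were detected on all 4 arrays (64.3%, against 50.8% of all named genes), with a median SD of 0.342. Their median deviation was -0.18, 0.069, 0.31 and -0.28 on replicates 1 to 4, with 6 of the 9 highest on replicate 3 and the other 3 on replicate 2. The size of these values rested largely on replicate 3. Without it the median SD of the cytokines was 0.159, and their median deviation was -0.013 on replicate 1 and -0.15 on replicate 4. A shared order remained: among replicates 1, 2 and 4, every detected cytokine was highest on replicate 2. Over all alternatives their median deviation on replicate 2 ran from -0.0032 to 0.18. Il1a, an alarm cytokine gene, read 3.18, 3.35, 3.24 and 3.06, and Il1b, its inflammasome-dependent relative, 4.06, 4.30, 4.82 and 3.86. The difference between the lists was not tested.

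**Figure D5:**
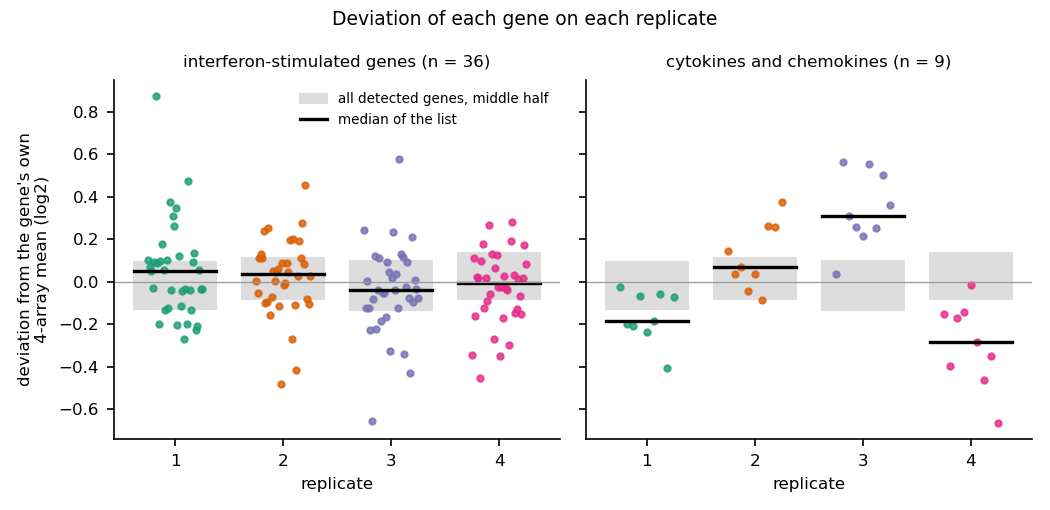
Deviation of each gene from its own 4-array mean (log2, y axis) on replicates 1 to 4 (x axis) for the 36 interferon-stimulated genes and for 9 cytokines and chemokines; points are genes, black bars are list medians, and grey boxes run between the quartiles of all 8424 detected genes. The interferon-stimulated genes centre near 0 on every replicate, whereas the cytokines sit at 0.31 on replicate 3 and at -0.28 on replicate 4.

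Genes upstream of the response were detected to unequal extents, beside 50.8% of all named genes. Of 6 measured interferon genes, 1 was detected on all 4 arrays and the others, Ifnb1, Ifna2, Ifna5, Ifnk and Ifng, on none. The exception, Ifna4, read -4.33, -4.02, -4.41 and -4.13. Among the receptors 4 of 5 were detected, including the type I chain gene Ifnar1 at -3.64, -3.23, -3.00 and -3.64 and the type II chain gene Ifngr1 at 0.77, 0.76, 0.97 and 0.86. The type III receptor gene Ifnlr1 was detected on no array.

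Of the JAK-STAT genes 7 of 8 were detected, and Socs1, a feedback inhibitor, was detected on no array. Jak1 read 2.31, 2.32, 2.27 and 1.70, and Jak2 -3.57, -3.19, -3.70 and -3.08. Among the interferon regulatory factors 5 of 6 were detected, with Irf1 at -0.49, -0.68, -0.37 and -0.57, Irf2 at -0.23, 0.16, -0.15 and -0.022, and no detection of Irf8. Of 5 measured upstream sensors and kinases, Tlr3 and Ikbke were detected on all 4 arrays. Tlr3, a receptor for double-stranded RNA, read -2.81, -3.15, -3.79 and -3.23, and the kinase gene Ikbke -1.17, -1.17, -1.19 and -1.13. Most of the target genes and receptors thus had signal on these arrays while most measured interferon genes did not.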

How the data were processed

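Total RNA of 4 cultures was measured on 1-colour Agilent arrays. The submitters' processing notes name Agilent Feature Extraction, version 11.0.1.1. The deposited values are spot intensities, background-subtracted by that software without normalization between arrays, per the file headers; the array grid was built on rn4. All 4 arrays lay on 1 slide, so a slide effect could not be tested. The deposited flags per spot gave detection. Spots flagged as outliers were left out (750 to 1551 an array), spots sharing a probe were combined as mean log2 intensity, and each array was shifted by its 75th percentile among probes detected on all 4 arrays, because 37.5% of the 45598 probes were so detected. A gene's level is that of its probe with the highest mean. Transcript accessions were matched without version to RefSeq genes of GRCr8, which named 21109 probes; no array coordinates are given because the builds differ, and promoter sequences and their coordinates come from RefSeq windows of GRCr8.

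All 36 detected members are named with values; the members and lists were chosen with earlier results of these data known. Single spots of probes printed at least 3 times were fitted with limma 3.58.1 (R 4.3.3), array as a factor, with Benjamini-Hochberg adjustment over 1350 probes at 0.05, tested on simulated data. The number of arrays limits the precision. Bright regions are blocks of 16 rows and 8 columns in which more than 10% of spots without a gene name exceeded all other arrays by at least 1 (log2). Alternatives were another detection flag, 3 arrays, all probes, flagged spots kept, bright regions left out, 4 other scalings or corrections, other filters and leaving out each replicate. Python 3.11.15 with numpy 2.4.6, pandas 2.3.3 and matplotlib 3.10.9 was used.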

Additional observations from a re-analysis of the deposited data

Results flagged for a closer look

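In 2 of the 36 detected genes a single array stood farther from the other 3 than Dixon's criterion allows, a criterion that chance meets in about 1 of 20 groups. Irgm read -4.12 on replicate 1, against -3.96 to -3.98 on the other arrays, a difference smaller than the error the scanner software gives this level, 0.160. Ifi35 read -0.92 on replicate 2, against -1.47 to -1.58 elsewhere, and its only spot lay in a bright region of that replicate.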

How the results depend on the processing

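The count of detected genes stayed between 32 and 40 of 43 under 9 alternatives. The median SD lay between 0.134 and 0.182 under 13 alternatives. Its closeness to the median over all genes in the same setting varied in both directions. With no detection filter the list had 0.182 against 0.241, and without replicate 2 it had 0.135 against 0.162. With quantile normalization, another of the scalings, it had 0.171 against 0.159, and with normexp the list was also the higher one. Every median deviation of the whole list on a replicate stayed within 1 median SD of the reported one, although its sign changed in some settings. The normexp correction with an offset of 50 used the median signals, was chosen after seeing the data and replaced a planned version on the mean signals, which was not run. With the 75th percentile over all probes, the counts of highest genes on replicates 1 to 4 were 15, 7, 10 and 4. On each replicate the share of all detected genes moved in the same direction as the count. Without single replicates, between 14 and 17 genes were highest on replicate 2 and between 7 and 10 on replicate 3; fewer arrays raise such counts by construction. The other counts of highest genes stayed within 1.5 times. Passing probes of the spot test numbered 761 to 1108 of 1350, so most probes passed in every setting. Ifitm1 was among them each time. The 75th percentile over all probes raised the level of all detected genes by a median of 3.41, the median of the detected probes by 2.21 and normexp by 0.24. Without the bright regions Gbp5 and Ifi35 had no spot left, and Rsad2 and Trim21 kept only their other probe, not detected on all arrays, with an SD of 0.159 and 1.19. No paired analysis was possible because there is 1 group. The distance of a signal from background limits Zbp1 and Oas2 most, where the scanner error was 0.266 and 0.218.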

Other observations

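Class I peptide loading genes, many of them interferon targets as well, were all detected, 7 of 7 measured, against 50.8% of all named genes. Tap1, a subunit of the peptide transporter, read -4.09, -3.38, -3.45 and -4.34 on replicates 1 to 4, and Tap2, the other subunit, 0.26, 0.28, 0.73 and 0.29. The median SD of this list was 0.173 and its median deviation was -0.100, 0.043, 0.072 and -0.094. Over all detected genes the median SD was 0.162 and the median deviations were -0.013, 0.0046, -0.0030 and 0.026. The alternatives were not run for this list, so the stability of its signs is not known.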
